A study of Homo sapiens with 6 samples.

Results

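The integrin subunits and the cytoskeletal proteins that link them to actin were compared between parental SET-2 cells and their OTX P/R derivative. Members were taken by gene symbol: every integrin alpha subunit (ITGA) and beta subunit (ITGB), together with the talins, the kindlins (FERMT1 to FERMT3), ILK, LIMS1, the parvins, vinculin (VCL), paxillin (PXN) and zyxin (ZYX). This gave 39 genes of the 19785 in the table, of which 26 encode integrin subunits and 13 encode linkers. SET-2 is an established human leukemia line, labelled as secondary acute myeloid leukemia. The parental group is this line, untreated. The OTX P/R group is its drug-resistant derivative, called OTX persister resistant, and was also untreated, so no library comes from cells under drug. OTX is taken to mean birabresib, a BET inhibitor. Each group had 3 libraries of total RNA from cultures in exponential growth. The labels name 1 resistant line and do not say whether it is a clone, so differences that came with resistance and other differences between the lines cannot be told apart.

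Integrins are receptors made of an alpha and a beta chain that pair at the cell surface. They bind matrix proteins, plasma proteins or receptors on other cells. Talins and kindlins bind the short tail of the beta chain inside the cell and switch the receptor to its binding form, and ILK, PINCH proteins such as LIMS1, parvins, vinculin, paxillin and zyxin couple the bound receptor to actin. In the megakaryocyte and platelet lineage the pair of ITGA2B and ITGB3 is the fibrinogen receptor, while leukocytes use the ITGB2 and ITGB7 families and ITGA4 to adhere to vessel walls and to each other.

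Values are StringTie abundances, which are scaled to transcript length, and their near-identical distributions show quantile normalization across the 6 libraries, so they have no unit of their own and keep no sequencing depth. The sum of all values lay between 419375 and 419437 in every library. A gene was tested where its mean over the libraries was at least 1, which held for 24 of the 39 members, 14 integrin subunits and 10 linkers. Changes are given as limma log2 fold changes on log2(value + 1) with their standard error (SE), and a change was called at a Benjamini-Hochberg adjusted p under 0.05 over all 10741 genes tested. Folds of means are on the scale of the values themselves. The 3 libraries of a group are described as biologic replicates of 1 line, so p-values measure the spread between these cultures. In such bulk RNA, fewer cells of a kind and less RNA per cell cannot be told apart. Every level and ratio given here is of transcripts. Chain protein, pairing and receptor at the surface were not measured.

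Transcripts of the receptor chains shifted in both directions, and 14 of the 24 tested members passed. Among integrin subunits 3 rose (ITGB3, ITGA9 and ITGB2), 6 fell (ITGB7, ITGAX, ITGAM, ITGA4, ITGAL and ITGA2B) and 5 did not pass. Among linkers 4 rose (ZYX, FERMT3, ILK and VCL), 1 fell (PARVG) and 5 did not pass. The share of tested members called was 58.3%, against 36.1% of all tested genes, with 18.6% of all tested genes called higher and 17.5% called lower. Libraries of the groups did not overlap for 17 members (70.8%), against 51.6% of all tested genes. The median log2 fold change was -0.02 over the tested members and 0.02 over all tested genes. Alpha subunits had a median of -0.64, with 1 higher and 5 lower of 9 tested. Beta subunits had a median of 0.42, with 2 higher and 1 lower of 5 tested. The alpha median is the value of ITGA2B, and the beta median is that of ITGB4, a low gene that did not pass. Among the lower alpha subunits, ITGAX and ITGAL had OTX P/R means of 0.533 and 0.552. They reached the tested mean of 1 only through the parental libraries. The summed value of all alpha subunits was 412.1 ± 29.4 in parental and 269.2 ± 3.62 in OTX P/R libraries (SD, n = 3 per group), while that of all beta subunits was 147.7 ± 15.2 and 213.4 ± 18.3. These sums rest mainly on ITGA2B and ITGA4 among the alpha chains and on ITGB2 and ITGB1 among the beta chains.

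**Figure D1:**
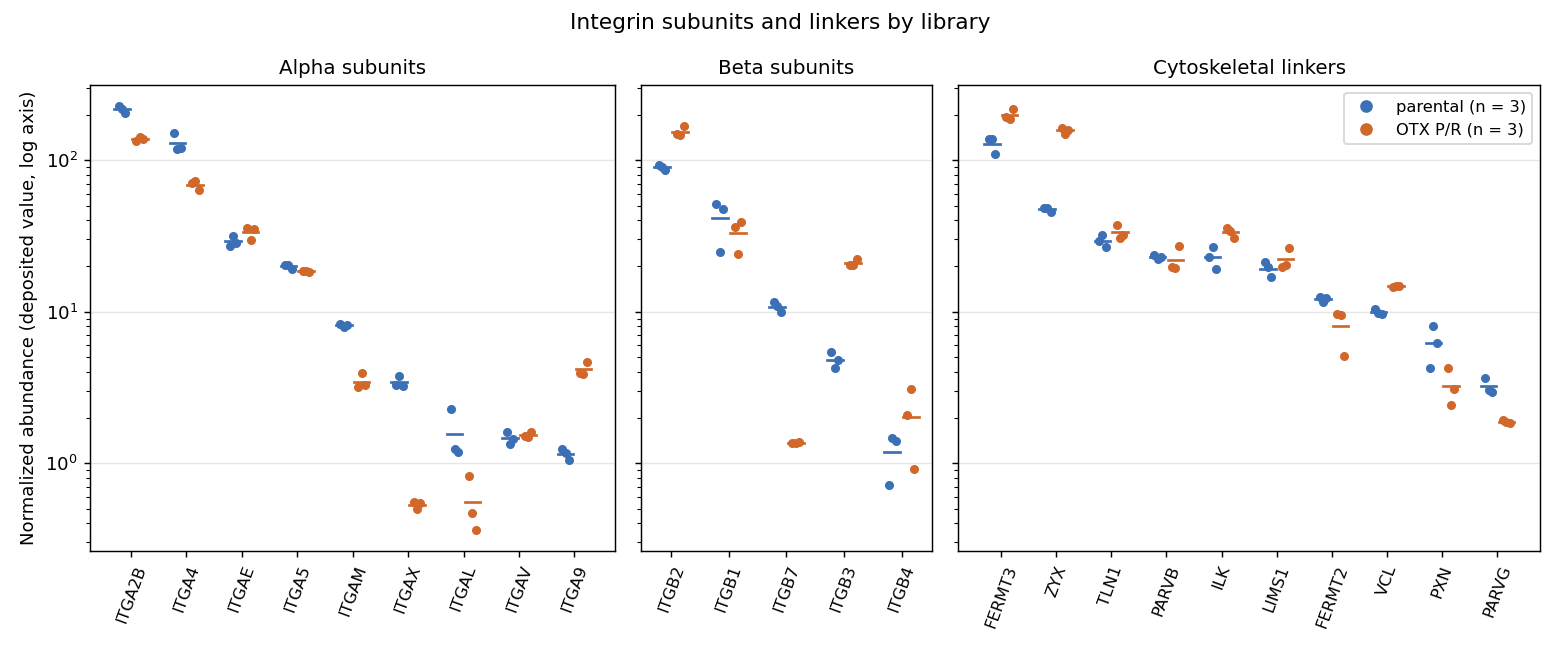
Normalized abundance (deposited value, log axis) of the 24 tested members in each of the 3 parental and 3 OTX P/R libraries, grouped as alpha subunits, beta subunits and linkers, with a line at each group mean. ITGB3, ITGA9, ITGB2 and ZYX lie higher in all OTX P/R libraries, and ITGB7, ITGAX and ITGAM lie lower.

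To show where transcripts of members with large changes begin, the 250 bases before the RefSeq start are given for ITGB7 and ITGAM, the largest falls among tested members that the RefSeq table covers, and for ZYX, the largest rise among them. They are read 5′ to 3′ on the gene's strand in GRCh38.p14, at chr12:53207252-53207501 on the minus strand for ITGB7, chr16:31259725-31259974 on the plus strand for ITGAM and chr7:143381095-143381344 on the plus strand for ZYX. Capitals mark AGGAAG or its reverse complement CTTCCT, a form of the ETS core; ETS factors such as PU.1 are known regulators of ITGAM in myeloid cells.
ITGB7: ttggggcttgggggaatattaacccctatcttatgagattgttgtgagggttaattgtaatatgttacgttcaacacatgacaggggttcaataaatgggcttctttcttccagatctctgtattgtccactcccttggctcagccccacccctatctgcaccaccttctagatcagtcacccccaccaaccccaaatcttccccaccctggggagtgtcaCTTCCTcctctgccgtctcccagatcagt
ITGAM: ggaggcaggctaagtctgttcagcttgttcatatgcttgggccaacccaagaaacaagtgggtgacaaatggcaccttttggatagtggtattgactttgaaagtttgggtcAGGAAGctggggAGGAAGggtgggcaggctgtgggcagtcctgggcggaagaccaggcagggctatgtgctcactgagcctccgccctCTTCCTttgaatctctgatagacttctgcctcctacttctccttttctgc
ZYX: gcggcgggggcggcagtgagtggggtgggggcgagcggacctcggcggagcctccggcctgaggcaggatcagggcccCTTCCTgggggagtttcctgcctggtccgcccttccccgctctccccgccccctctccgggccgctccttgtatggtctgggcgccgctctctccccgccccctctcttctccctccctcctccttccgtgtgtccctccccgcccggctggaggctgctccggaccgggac
The ITGAM window held 3 such matches, and those of ITGB7 and ZYX held 1 each. Among all 35116 starts that RefSeq lists, 28.7% held at least 1 match in the same window, and 17 of the 39 starts of 28 members did (43.6%). A GATA form, AGATAA or TTATCT, was in none of these windows, in 2 of the 39 member starts and in 9.17% of all starts. A match is a description of the letters only.

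Transcripts of the chains of the platelet fibrinogen receptor changed unequally. ITGB3, the beta chain, stood at 5.43, 4.27 and 4.80 in parental libraries 1 to 3 and at 20.4, 20.4 and 22.2 in OTX P/R libraries 1 to 3. The ranges lie far apart. The mean rose 4.35-fold, from 4.83 ± 0.585 to 21.0 ± 1.04 (SD, n = 3 libraries each), and the log2 fold change was 1.92 ± 0.09 SE (limma adjusted p = 3.78e-05). ITGA2B, the alpha chain, was the most abundant integrin subunit of the parental cells, above 98.4% of all genes in its mean over the 6 libraries. It stood at 227, 216 and 204 in parental and at 134, 141 and 138 in OTX P/R libraries, without overlap, and fell by 0.64 on the log2 scale (SE 0.05, limma adjusted p = 3.17e-04). ITGAV, the other alpha partner of ITGB3 and a vitronectin receptor chain, was low, at 1.46 ± 0.131 against 1.53 ± 0.0707 (SD, n = 3 per group), and did not pass. Its log2 fold change of 0.04 has a 95% interval of -0.13 to 0.22.

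The transcript of the leukocyte beta chain ITGB2 rose, while those of its alpha partners ITGAX and ITGAM fell. ITGB2, which carries LFA-1 and the complement receptors, stood at 92.7, 90.0 and 85.7 in parental and at 149, 147 and 168 in OTX P/R libraries. The groups do not overlap, and the log2 fold change was 0.78 ± 0.07 SE (limma adjusted p = 3.69e-04). ITGAX, the alpha chain of complement receptor CR4, was at 3.30, 3.76 and 3.24 in parental and at 0.557, 0.500 and 0.542 in OTX P/R libraries. That is a mean 6.44-fold lower, with a log2 fold change of -1.53 ± 0.07 SE (limma adjusted p = 4.76e-05). ITGAM, the alpha chain of complement receptor CR3, was at 8.35, 7.88 and 8.17 against 3.16, 3.93 and 3.28, and fell by 1.04 on the log2 scale (SE 0.08, limma adjusted p = 2.62e-04). The OTX P/R libraries of ITGAX and ITGAM all lay below the parental ones.

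ITGAL, the alpha chain of LFA-1, was low and more variable, at 2.27, 1.23 and 1.19 in parental and 0.825, 0.466 and 0.365 in OTX P/R libraries. Parental library 1 was highest, the groups did not overlap, and ITGAL fell by 0.71 on the log2 scale (SE 0.19, limma adjusted p = 0.0326). Leaving out parental replicate 2 ended this call (adjusted p = 0.0510), as did leaving out OTX P/R replicate 2 (0.0922) or 3 (0.0942) and testing with no filter on low values (0.0534). ITGAL was below the tested range without parental replicate 1. ITGAD, the remaining ITGB2 partner, was not tested, with means of 0.0527 and 0.0435. Summed over these alpha chains, the value went from 13.2 ± 0.684 to 4.58 ± 0.360 (SD, n = 3 per group), so ITGB2 exceeded the sum of its listed partners in every library of both groups. Within the sum ITGAX took 26.1% ± 2.74 in parental and 11.7% ± 1.42 in OTX P/R libraries, and ITGAM 61.8% ± 2.50 and 75.3% ± 5.69.

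Transcripts of ITGA4 and ITGB7, whose chains pair in a receptor for VCAM1, MADCAM1 and fibronectin, were both lower in OTX P/R libraries. ITGB7, which pairs with ITGA4 in gut homing of lymphocytes and with ITGAE in binding E-cadherin, had the largest log2 fold change, in either direction, of the 24 tested members. It stood at 11.6, 10.9 and 9.94 in parental and at 1.35, 1.36 and 1.38 in OTX P/R libraries, 7.91-fold lower in the mean (log2 fold change -2.32 ± 0.07 SE, limma adjusted p = 1.13e-05). ITGA4 was at 152, 119 and 119 against 70.5, 72.6 and 63.1, again without overlap, and fell by 0.90 on the log2 scale (SE 0.11, limma adjusted p = 0.00170). ITGAE did not pass, at 29.1 ± 2.28 against 33.4 ± 3.25 (SD, n = 3 libraries each), a difference of 0.19 on the log2 scale with an interval of -0.03 to 0.42. Of the summed value of both ITGB7 partners, ITGA4 took 81.5% ± 3.01 in parental and 67.3% ± 3.40 in OTX P/R libraries.

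ITGB1, the beta chain with the most partners, was too variable to show a change of moderate size. It stood at 51.1, 24.9 and 47.7 in parental and at 36.2, 24.0 and 39.3 in OTX P/R libraries, so the groups overlap and library 2 was lowest in both. The log2 fold change of -0.27 has a 95% interval of -1.04 to 0.50. ITGA5, the alpha chain of the classical fibronectin receptor, was steady within groups at 20.0 ± 0.675 and 18.5 ± 0.218 (SD, n = 3 per group) and did not pass (log2 fold change -0.10, limma adjusted p = 0.139), although its libraries did not overlap. ITGA9, which binds tenascin and osteopontin among other ligands, stood at 1.23, 1.17 and 1.05 in parental and at 3.92, 3.91 and 4.65 in OTX P/R libraries. The ITGA9 mean was 3.60-fold higher (log2 fold change 1.26 ± 0.08 SE, limma adjusted p = 1.39e-04). Among the alpha partners of ITGB1, ITGA4 took 84.4% ± 1.60 of the summed value in parental and 73.4% ± 1.74 in OTX P/R libraries, ITGA5 13.1% ± 1.41 and 19.8% ± 0.776, and ITGA9 0.754% ± 0.0612 and 4.47% ± 0.692. ITGB4, the partner of ITGA6 in hemidesmosomes, ranged from 0.718 to 1.46 in parental and from 0.911 to 3.09 in OTX P/R libraries and did not pass (interval of the log2 fold change -0.31 to 1.15).

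The other 12 integrin subunits and 3 linkers were below the tested range. Of these 15 genes 7 had a mean under 0.1 in both groups, namely ITGA1, ITGA2, ITGAD, ITGB6, ITGB8, TLN2 and PARVA. ITGB5, a vitronectin receptor chain with ITGAV, was at 0.224, 0.151 and 0.241 in parental and at 1.86, 1.05 and 1.28 in OTX P/R libraries, all of them higher. ITGA11, a collagen receptor chain, was at 0.808, 0.602 and 0.595 against 0.00981, 0.0171 and 0.00419. When genes of any level above 0 were tested, 27.8% of 17367 genes were called. ITGB5 (log2 fold change 0.98, limma adjusted p = 0.00450), FERMT1 (0.48) and ITGA10 (0.19) were then called higher, and ITGA11 (-0.72) and ITGA8 (-0.17) lower. ITGA3, ITGA6 and ITGA7 had means between 0.0218 and 0.203 in each group and were not called.

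Among transcripts of the proteins that switch integrins on, that of the blood cell kindlin rose. FERMT3, kindlin-3, on which platelet and leukocyte integrins depend, stood at 138, 138 and 109 in parental and at 193, 187 and 216 in OTX P/R libraries. The groups do not overlap, and the log2 fold change was 0.63 ± 0.11 SE (limma adjusted p = 0.00644). TLN1, talin-1, did not pass at 29.3 ± 2.59 against 33.4 ± 3.52 (SD, n = 3 libraries each), a difference of 0.18 on the log2 scale with an interval of -0.06 to 0.42. FERMT2, the kindlin of adherent cells, was at 12.6, 11.5 and 12.3 in parental and at 9.61, 9.48 and 5.07 in OTX P/R libraries, where library 3 was lowest, and did not pass (log2 fold change -0.58, limma adjusted p = 0.0897). It passed without OTX P/R replicate 3 (log2 fold change -0.32, adjusted p = 0.0229). FERMT1, the kindlin of epithelia, was not tested, with means of 0.508 ± 0.0332 and 1.11 ± 0.0804.

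In the complex of ILK, PINCH and parvin 1 gene rose and 1 fell of 4 tested. ILK, integrin-linked kinase, was at 22.9, 26.9 and 19.2 in parental and at 35.9, 34.2 and 30.6 in OTX P/R libraries (log2 fold change 0.54 ± 0.13 SE, limma adjusted p = 0.0209). ILK no longer passed with parental replicate 1 (adjusted p = 0.0570), OTX P/R replicate 1 (0.0662) or OTX P/R replicate 2 (0.0649) left out. PARVG, the parvin of blood cells, was at 3.67, 3.04 and 2.94 against 1.93, 1.88 and 1.84 and fell by 0.55 on the log2 scale (SE 0.08, limma adjusted p = 0.00401). PARVB, its neighbour on chromosome 22, was at 23.0 ± 0.610 against 22.0 ± 4.41 (SD, n = 3 per group) and did not pass. Its log2 fold change of -0.08 was -0.23 without OTX P/R replicate 3 (adjusted p = 0.0343) and 0.0037 without OTX P/R replicate 2. LIMS1, PINCH-1, did not pass at 19.3 ± 2.29 against 22.2 ± 3.60, and its level is uncertain because near-identical copies of the gene can take part of its reads.

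ZYX, which gathers where actin filaments are under tension, had the largest log2 fold change among the 10 tested linkers. It stood at 48.3, 48.3 and 45.5 in parental and at 164, 149 and 159 in OTX P/R libraries, 3.32-fold higher in the mean (log2 fold change 1.71 ± 0.05 SE, limma adjusted p = 1.13e-05). VCL, which binds talin and actin, was at 10.4, 9.76 and 9.67 against 14.6, 14.7 and 14.8, a log2 fold change of 0.52 ± 0.05 SE (limma adjusted p = 6.08e-04). For both genes every OTX P/R library was above every parental one. PXN, a scaffold of adhesion signalling, was at 4.23, 8.10 and 6.20 in parental and at 4.22, 2.43 and 3.11 in OTX P/R libraries and did not pass (log2 fold change -0.74, limma adjusted p = 0.0576). PXN passed without parental replicate 1, its lowest parental library (log2 fold change -0.95, adjusted p = 0.0267).

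Ratios of partner chains within a library are free of any single factor applied to that library, though not of quantile normalization. They show whether the transcripts of a receptor's chains changed unequally. Among the listed heterodimers 9 had both chains at a mean of at least 1 in both groups. With 3 libraries against 3 the exact two-sided permutation test cannot give a p under 0.1. ITGB3 over ITGA2B was 0.0239, 0.0197 and 0.0235 in parental and 0.152, 0.145 and 0.161 in OTX P/R libraries, a log2 difference of 2.77 (exact p = 0.1, adjusted 0.15 over the 9 pairs). ITGB3 over ITGAV went from a geometric mean of 3.30 to 13.7 and ITGB2 over ITGAM from 10.99 to 44.8, log2 differences of 2.05 and 2.03. In the other direction ITGB7 over ITGA4 went from 0.0834 to 0.0199, ITGB7 over ITGAE from 0.371 to 0.0410 and ITGB1 over ITGA9 from 34.1 to 7.83, log2 differences of -2.07, -3.18 and -2.12. These 6 pairs had no overlap between parental and OTX P/R libraries, which by itself sets the exact permutation p to its smallest value of 0.1. ITGB3 and ITGB7 recur among these pairs, and the ratios use the values given above, so they are not separate results. ITGB1 over ITGA4, ITGAV and ITGA5 overlapped between the groups, with log2 differences of 0.64, -0.35 and -0.17 (exact permutation p = 0.3, 0.3 and 0.6).

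**Figure D2:**
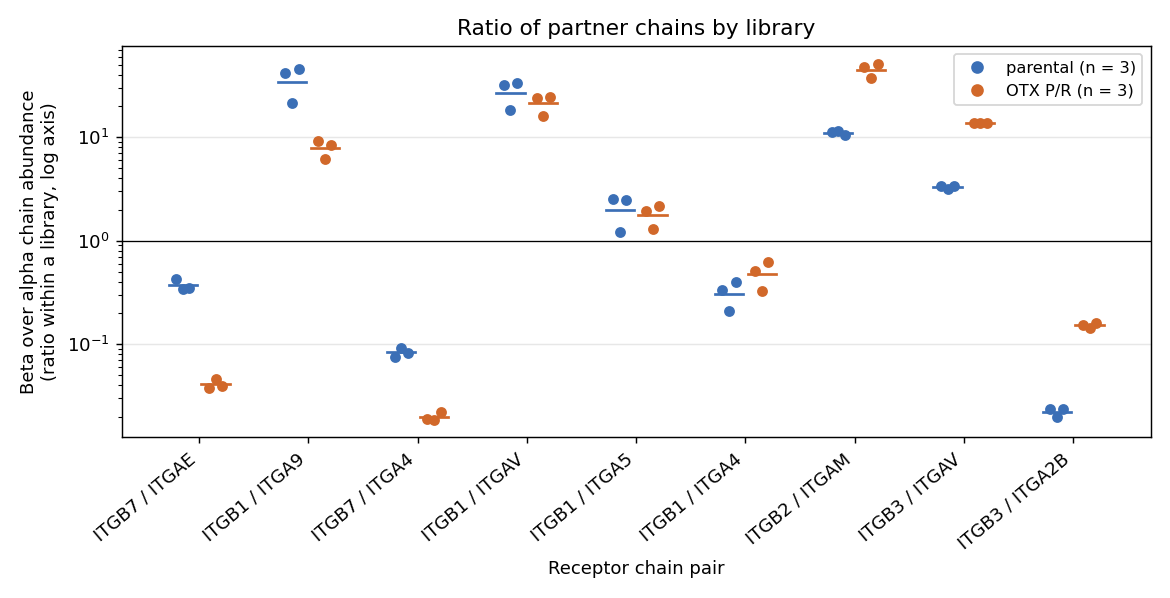
Beta over alpha chain abundance within each library (log axis) for the 9 receptor pairs, 3 parental and 3 OTX P/R libraries each, with a line at the geometric mean. The pairs with ITGB3 and ITGB2 lie higher in OTX P/R cells and those with ITGB7 lie lower, while ITGB1 with ITGAV, ITGA5 and ITGA4 overlaps.

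Genes beside a member on its chromosome moved with it in some cases and not in others. For ITGA2B on chromosome 17 the 20 nearest tested genes had a median log2 fold change of -0.74, 15 of them lower and 0 higher, beside -0.64 for ITGA2B itself. For ZYX on chromosome 7 the median was 0.69, with 16 of 20 higher and 1 lower, beside 1.71 for ZYX. Over all tested genes 18.6% were called higher and 17.5% lower. The neighbours of ITGAE on chromosome 17 had a median of 0.28 and those of ITGB4 0.31, with 11 and 6 of 20 called higher and 0 lower. For ITGB3, also on chromosome 17, the median was 0.13, with 7 of 20 called higher and 1 lower. For ITGB7 on chromosome 12 it was -0.04, with 6 higher and 3 lower. ITGAM and ITGAX are neighbours on chromosome 16, where the medians around them were 0.06 and 0.04. Around each of them 2 of 20 genes were called higher and 3 lower. Around ITGAL on the same chromosome the median was 0.19, with 6 higher and 2 lower. ITGA4 and ITGAV are neighbours on chromosome 2 and had log2 fold changes of -0.90 and 0.04 beside a median of -0.03 around each. Around ITGA4 2 of 20 were called higher and 3 lower, and around ITGAV 4 higher and 4 lower. The part of such regional shifts in the changes of ITGA2B and ZYX was not tested.

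**Figure D3:**
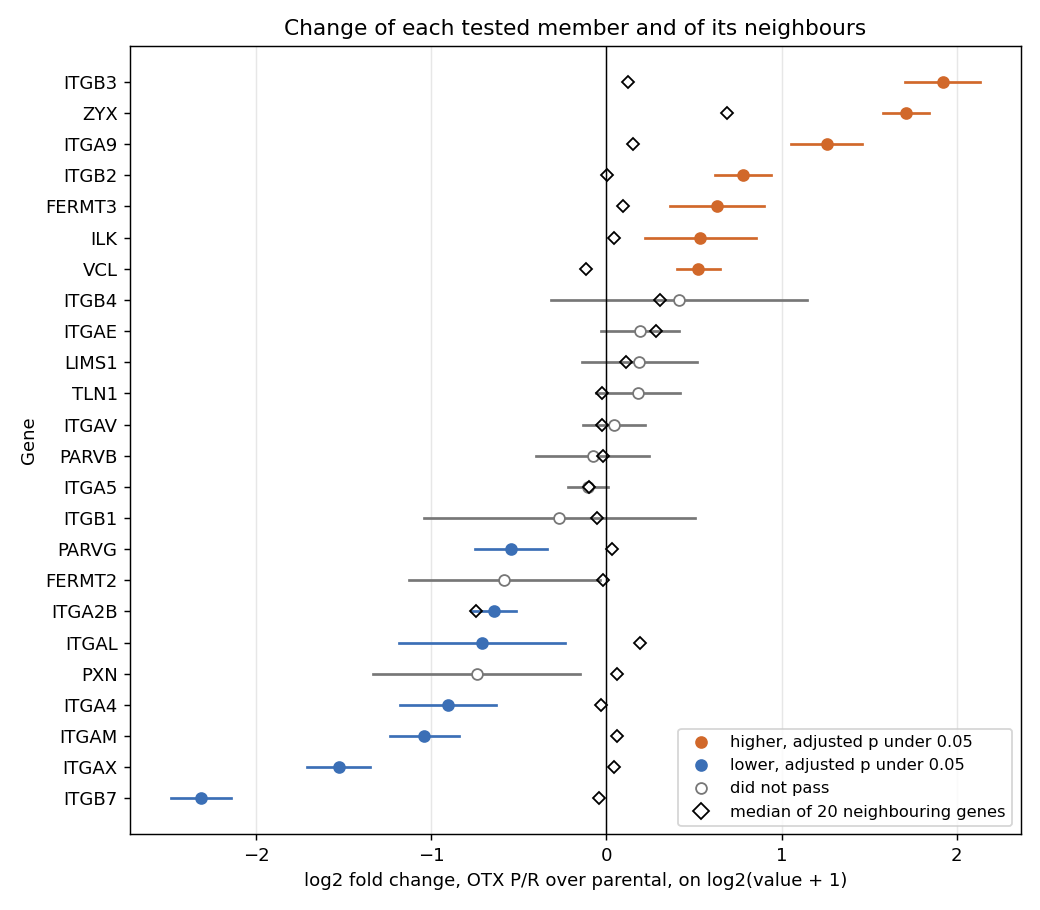
Limma log2 fold change of each tested member with its 95% interval (filled where called) and, as an open diamond, the median of the 10 tested genes on each side. The diamond lies close to the member's own value for ITGA2B and near 0 for ITGB7, ITGAX, ITGAM and ITGB3.

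Several members overlap another gene, and whether reads were counted by strand is not given in the sources used here. ILK overlaps TAF10 on the opposite strand, which fell from 42.5 ± 6.02 to 20.7 ± 2.36 (SD, n = 3 per group) while ILK rose. VCL overlaps AP3M1, which fell by 0.27 on the log2 scale, and ITGB7 overlaps ZNF740, which fell by 0.24. EPHA1, which overlaps ZYX, was below the tested range at 0.0259 ± 0.00934 and 0.380 ± 0.0742. TRPT1 beside FERMT3 did not pass (log2 fold change -0.29). On the same strand, ITGB3 overlaps the protein-coding gene AC068234.1, for which no value was given. PARVB overlaps SAMM50 on the same strand, which did not pass, at 49.1 ± 1.04 in parental and 47.1 ± 1.25 in OTX P/R libraries (SD, n = 3 per group).

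Genes that act with integrins but are no members were read from 6 lists by role, 77 of 105 tested. Of these 19 rose, 16 fell and 42 did not pass, and the median log2 fold change was 0.14, against 0.02 over all tested genes. The share called was 45.5%, beside 36.1% of all tested genes (18.6% higher and 17.5% lower). By list it was 35.7% for inside-out activation and 33.3% each for competitors of talin and kindlin and for lateral membrane partners, which is near that background. It was 47.4% for kinases and adaptors, 57.1% for the 7 tested ligands and 69.2% for the other actin linkers. Of the 14 tested genes of inside-out activation, the route from other receptors to talin, 3 rose, 2 fell and 9 did not pass. APBB1IP, which brings talin to the membrane with RAP1, stood at 8.04, 8.26 and 7.74 in parental and at 27.6, 29.2 and 29.8 in OTX P/R libraries (log2 fold change 1.73 ± 0.05 SE). RASGRP2, the calcium-driven activator of RAP1 in platelets, rose with a log2 fold change of 1.07 (7.20 to 16.2), and RAP1GAP2, which switches RAP1 off, with 0.82. RAP1A itself varied from 1.25 to 9.94 in parental and from 10.4 to 34.9 in OTX P/R libraries and did not pass (log2 fold change 1.85 ± 0.68 SE, limma adjusted p = 0.0805). RASSF5 and RASA3 fell by 0.27 each on the log2 scale. The RASA3 call held without parental replicate 3 but with no other library left out (adjusted p = 0.0900 to 0.123), and the RASSF5 call was lost without parental replicate 1 or 3 or OTX P/R replicate 2 or 3 (0.0682 to 0.0827).

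Of the 9 tested genes listed as competitors of talin and kindlin 2 rose, 1 fell and 6 did not pass. Not all of them compete for the integrin tail, since the list also holds talin binders such as KANK2. FLNC, a filamin, rose from 1.17 ± 0.0819 to 2.42 ± 0.151 (SD, n = 3 libraries each), 0.66 on the log2 scale, and KANK2, which binds talin, fell by 0.66. Among 19 tested kinases and adaptors 4 rose, 5 fell and 10 did not pass. The paxillin relatives went apart. TGFB1I1 (HIC-5) rose from 4.76 ± 0.169 to 14.6 ± 0.555 and LPXN (leupaxin) fell from 18.7 ± 0.283 to 6.25 ± 0.553 (SD, n = 3 libraries each), giving log2 fold changes of 1.43 and -1.45. PTK2B, the focal adhesion kinase relative of blood cells, rose by 0.56, and GIT1 fell by 0.89. FYN fell by 0.86, a call lost without parental replicate 1 or 3 or OTX P/R replicate 2 (adjusted p = 0.0608 to 0.0813). CSK, which restrains Src kinases, rose by 0.48, a call that held without parental replicate 1 but with no other library left out (0.0501 to 0.120). PTK2, focal adhesion kinase, and SRC did not pass, with log2 fold changes of 0.29 and 0.75.

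Of 13 other tested actin linkers 5 rose, 4 fell and 4 did not pass. TES, a zyxin partner, rose by 1.04 on the log2 scale, VASP, which extends actin filaments and binds zyxin, by 0.65 and PFN1, profilin, by 0.59. SORBS3 (vinexin), a vinculin partner, fell from 6.03 ± 0.235 to 0.949 ± 0.370 (SD, n = 3 per group), and PDLIM5 and NCK2 fell by 1.52 and 0.83 on the log2 scale. Of 18 ligands and counter-receptors 7 were tested, and 2 rose, 2 fell and 3 did not pass. THBS1, thrombospondin, a ligand of several integrins and of CD47, stood at 9.48, 7.49 and 8.74 in parental and at 23.4, 20.7 and 24.4 in OTX P/R libraries (log2 fold change 1.32 ± 0.10 SE), and ICAM4 rose by 0.35. ICAM1, the main LFA-1 ligand, was at 13.9, 13.3 and 12.5 against 5.16, 5.15 and 4.77 (log2 fold change -1.24 ± 0.06 SE), and VTN, vitronectin, fell by 1.48 on the log2 scale. VCAM1, FGA, FGB and TNC were at 0 in every library, and FN1 had means of 0.104 and 0.0532. Among 15 tested lateral membrane partners 3 rose, 2 fell and 10 did not pass. TSPAN33, a tetraspanin of erythroid and lymphoid cells, rose from 3.73 ± 0.745 to 27.1 ± 0.221, while CD53, a leukocyte tetraspanin, fell from 107.1 ± 23.3 to 34.8 ± 2.62 (SD, n = 3 per group). CD82 and TSPAN9 rose by 0.29 and 0.27 and PLAUR fell by 0.51 on the log2 scale. The CD82 call was lost without any of the OTX P/R replicates (adjusted p = 0.0595 to 0.0816). The TSPAN9 call held without OTX P/R replicate 3 but with no other library left out (0.0944 to 0.117), and the PLAUR call was lost without parental replicate 1 or 3 or OTX P/R replicate 1 or 3 (0.0553 to 0.0701). CD47 did not pass, at a log2 fold change of 0.04 with an interval of -0.09 to 0.16.

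**Figure D4:**
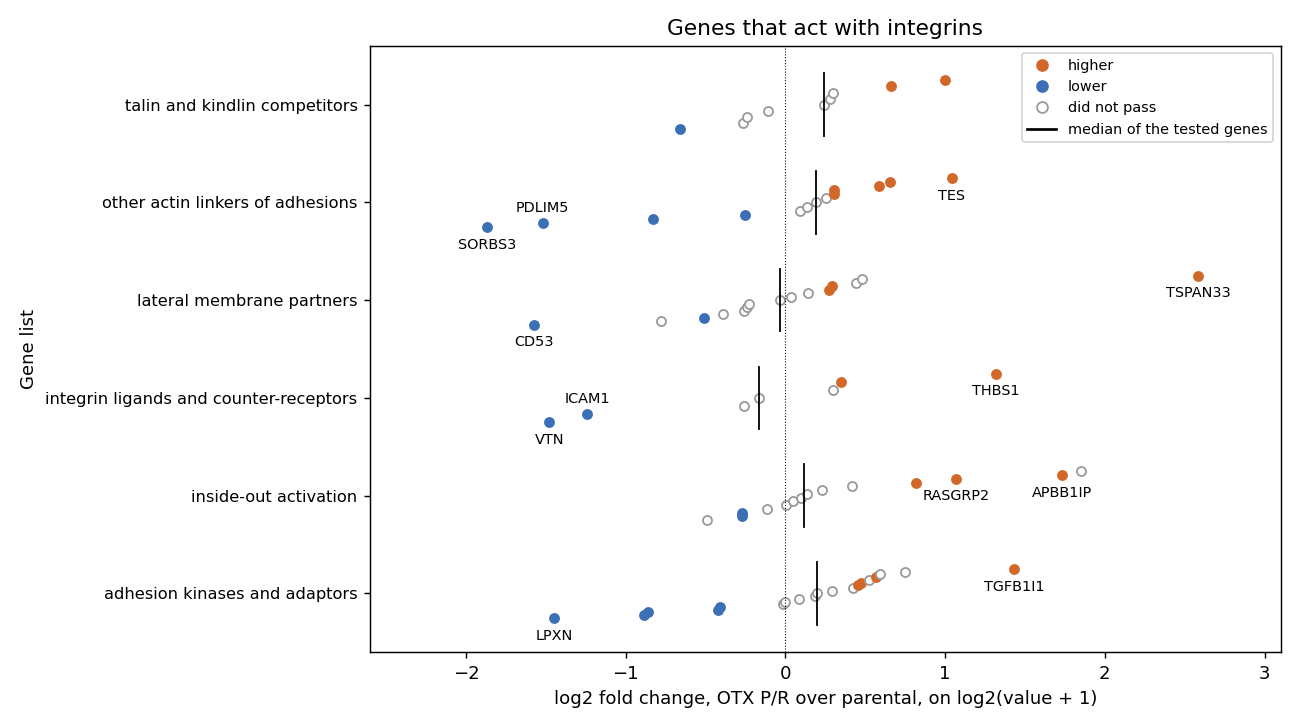
Limma log2 fold change of the 77 tested genes that act with integrins, by list (filled where called), with a bar at each list's median. TSPAN33, APBB1IP, TGFB1I1 and THBS1 lie farthest to the right among called genes and SORBS3, CD53, PDLIM5, VTN and LPXN farthest to the left.

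Cell type markers give the setting of these levels. Of 12 megakaryocyte markers, a list that holds ITGA2B and ITGB3, 8 reached a mean of 1 across all libraries, 6 were higher and 1 lower, and their summed value was 272.8 to 296.8 in parental and 298.9 to 304.3 in OTX P/R libraries. PF4 was at 0 in every library, and PPBP, VWF and SELP had means under 1. The summed T and NK cell markers, 3 of 8 with a mean of at least 1 and all 3 of them lower, went from 72.1 to 78.7 in parental to 30.9 to 33.4 in OTX P/R libraries, mostly NKG7, while CD3E and CD3G had means of 0.0254 or less. Of 9 monocyte and granulocyte markers only LYZ had a mean of at least 1, and it did not pass, while CD14, CSF1R and MPO had means of 0.0642 or less and S100A8 was at 0. The summed values were 87.2 to 100.7 and 81.3 to 103.0. The B cell markers summed to 13.8 to 16.1 and 9.996 to 10.9, with CD79A and CD79B lower of 5 and MS4A1 at 0. Stromal and endothelial markers summed to 0.145 to 0.170 and 2.15 to 2.30, with COL1A1 the most abundant and TEK at 0, and epithelial markers to 8.95 to 11.7 and 13.9 to 16.2, mostly KRT18. Erythroid markers summed to 7073 to 8125 and 6105 to 6646, with HBG1 the most abundant. The T and NK cell and B cell sums moved in the same direction as ITGB7, ITGA4, ITGAX and ITGAM, and their part in those changes was not tested.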

How the data were processed

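Total RNA of 6 untreated cultures, 3 parental SET-2 and 3 OTX P/R, was sequenced. Per the submitters' processing notes, Trim Galore, HISAT2, StringTie and build hg19 were used by the authors. Their versions, the annotation and the strand setting were not given in the sources used here. As deposited, the authors' table holds 1 linear signal per gene, a StringTie abundance not named as FPKM or TPM. Libraries differed by at most 0.243% at equal ranks for values of 1 or more, which shows quantile normalization, so values carry ranks and the depth is unknown.

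Groups came from the sample titles. Of 19785 genes 6 had a missing value and were left out. The other values were taken as log2(value + 1), and every gene whose mean reached 1 entered a limma 3.58.1 fit in R 4.3.3, with the prior variance trended on abundance, two-sided tests and Benjamini-Hochberg adjustment over all of them. Changes on this scale understate those of low genes. Partner chain ratios used exact two-sided permutation tests. Members and lists were chosen with earlier results of these data known. Every member is accounted for, and up to 3 called genes per direction are named in each related list, except 1 that is not reported here; others are named with values as examples. Neighbours and overlaps came from GENCODE 29, matched by identifier for 19528 genes, and start regions from RefSeq on GRCh38.p14, which covers 28 of the 39 members. Neither is the authors' build. The fit was tested on simulated data. Alternatives were each library left out, the replicate number as a block, libraries centred on their median, limma's robust or untrended prior, a filter at a mean of 5 or none, and pseudocounts of 0.1 and 5. Tables were prepared with Python 3.11.15 and pandas 2.3.3.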

Additional observations from a re-analysis of the deposited data

How the results depend on the processing

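The counts of members called higher and lower, 7 each, were 6 to 7 and 6 to 8 over the libraries left out and stayed within 1.5 times under every other alternative listed except a minimum mean of 5, which tested 17 members and called 4 lower, since it removed low members such as ITGAX, ITGAL and PARVG. Without a filter 10 were called higher and 8 lower. With the replicate number as a block (replicate block) the counts were again 7 and 7, and the related genes were 19 higher and 13 lower, against 19 and 16. Over all tested genes, same-numbered libraries did not deviate together (correlations of -0.0647, -0.0277 and -2.94e-04). This does not settle whether they were paired, and single genes can still vary with the number. For ITGB1 the limma adjusted p was 0.551 in the main fit and 0.125 under the block. FYN, RASA3, CD82, TSPAN9 and PLAUR lost their calls under the block. Pseudocounts, priors and centring changed the call of none of the 53 named genes tested, and testing without a filter ended those of ITGAL, CSK, RASA3 and TSPAN9. The log2 fold change of PARVB ranged from -0.2313 to 0.003708 and the log2 difference of ITGB1 over ITGA5 from -0.5101 to 0.05873 over the libraries left out, reversing direction at one end. For the other partner pairs every alternative kept the direction, and no pair could pass, since the smallest p is 0.1, or 0.25 with the block. Depth is unknown, so no floor is given for members near 0.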
